A study of Mus musculus with 12 samples.

Results

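Genes of the fat cell were followed across gastrocnemius muscle of mice in which the human DUX4 gene was switched on in skeletal muscle fibers. The genes were Adipoq, Lep, Cfd, Retn, Plin1, Cidec, Fabp4 and Pparg, chosen by name as well known genes of white adipocytes. Earlier results of these data were known when they were chosen. All 8 were found among the 37748 genes of the deposited table, and all 8 were among the 16679 genes with enough counts to be tested.

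The data were poly(A) RNA-seq libraries of 12 mice aged 13 weeks, 1 library per mouse and 3 mice per group. ACTA1-MCM/+ mice, the controls, carried a transgene that makes MerCreMer, a tamoxifen-activated Cre recombinase, from the skeletal muscle actin promoter, and they received no tamoxifen (TMX). FLExDUX4/+ mice carried the DUX4 transgene, which Cre turns into the orientation for expression, without a Cre, and they also received no TMX. Mice labelled FLExDUX4/+;MCM/+ carried both transgenes. The moderate model received 1 intraperitoneal injection of TMX at 5 mg/kg, and the severe model received 2 injections at 10 mg/kg on consecutive days. Per the study's results both were taken at day 9, which in the severe model is counted from the first injection. TMX and DUX4 expression therefore cannot be told apart in the comparisons of the models with either single transgenic group. The 2 models also differ in TMX dose, so the same limit holds between them. The study further reports low recombination in skeletal muscle of mice with both transgenes without TMX, a group not among these samples. It also describes a low leak of DUX4 expression in mice with the FLExDUX4 transgene alone, although it did not detect DUX4 protein in their skeletal muscle. The Cre is driven in muscle fibers and recombination there was mosaic, so the adipocytes in these samples were not the cells meant to express DUX4. The mice are named by their number, in the order 1127, 1246 and 1349 for ACTA1-MCM/+, 1358, 1367 and 1378 for FLExDUX4/+, 1236, 1308 and 1331 for the moderate model, and 1047, 1066 and 1079 for the severe model.

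White adipocytes store triglyceride in 1 large droplet and release hormones. Their identity rests on the nuclear receptor PPAR gamma, which pairs with retinoid X receptors and works together with C/EBP factors at genes for lipid storage. In limb muscle, adipocytes lie between fiber bundles and along the surface, and they can form from fibro-adipogenic progenitors, the mesenchymal cells between the fibers. A whole dissected muscle therefore gives fat cell RNA from within and from around the tissue, and in such bulk samples fewer cells of a type cannot be told apart from less RNA per cell.

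Of the 8 genes, Adipoq, Lep, Cfd and Retn encode secreted proteins. Plin1 and Cidec encode proteins of the lipid droplet, Fabp4 a carrier of fatty acids in the cytosol, and Pparg the receptor PPAR gamma. On GRCm38, GENCODE M21 places Adipoq (ENSMUSG00000022878) at chr16:23146536-23158028 and Retn (ENSMUSG00000012705) at chr8:3655770-3660110, both on the plus strand. Cfd lies at chr10:79890853-79892655 and Lep at chr6:29060220-29073877, also on the plus strand. Pparg lies at chr6:115360951-115490399 on the plus strand. On the minus strand, Plin1 spans chr7:79720218-79732903, Cidec spans chr6:113424634-113435760 and Fabp4 spans chr3:10204088-10208576. All are protein-coding, and the counts used here are sums over each whole gene. Only Pparg overlaps another annotated gene, the antisense gene Gm44079. No strand setting is stated for the counting, so reads of that overlap cannot be told apart.

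The DNA just before the start of 4 of these genes is shown as a description, and its relation to the expression values was not tested. Each run is the 250 bases before a RefSeq start on GRCm38.p6, read 5′ to 3′ on the gene's strand. Capitals mark exact matches, on either strand, to TATAAA (the box found near many starts), AGGTCA (a half-site of PPAR and other nuclear receptors), TTGCNNAA (a C/EBP motif) or CCAAT.
Adipoq, chr16:23146286-23146535, plus strand: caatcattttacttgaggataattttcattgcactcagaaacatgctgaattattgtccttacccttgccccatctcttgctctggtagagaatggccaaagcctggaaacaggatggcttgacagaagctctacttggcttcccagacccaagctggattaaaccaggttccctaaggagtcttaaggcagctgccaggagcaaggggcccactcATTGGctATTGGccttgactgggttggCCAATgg
Retn, chr8:3655520-3655769, plus strand: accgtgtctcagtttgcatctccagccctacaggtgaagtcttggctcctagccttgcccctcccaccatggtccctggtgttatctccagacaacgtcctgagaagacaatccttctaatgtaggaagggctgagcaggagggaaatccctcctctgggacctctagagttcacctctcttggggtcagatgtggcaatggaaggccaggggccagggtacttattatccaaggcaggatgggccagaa
Cfd, chr10:79890603-79890852, plus strand: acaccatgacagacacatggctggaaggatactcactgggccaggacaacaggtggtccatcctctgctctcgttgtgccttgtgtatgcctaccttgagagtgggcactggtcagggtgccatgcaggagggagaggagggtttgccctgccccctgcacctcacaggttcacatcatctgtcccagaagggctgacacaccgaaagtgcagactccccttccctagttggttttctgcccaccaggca
Pparg, last listed start, chr6:115421816-115422065, plus strand: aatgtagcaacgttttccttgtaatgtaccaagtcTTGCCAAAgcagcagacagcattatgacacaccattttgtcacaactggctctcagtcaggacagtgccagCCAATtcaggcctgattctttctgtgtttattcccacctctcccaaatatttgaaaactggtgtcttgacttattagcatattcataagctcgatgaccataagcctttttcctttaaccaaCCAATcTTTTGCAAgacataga

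The Adipoq window held CCAAT 3 times, beginning 34, 27 and 7 bases before the start, 2 of them on the opposite strand. The Pparg window shown belongs to the start that lies farthest inside the gene. It held the C/EBP motif at 215 and 16 bases and CCAAT at 144 and 22 bases before the start, with the match at 16 beginning 1 base after the CCAAT at 22. The Retn and Cfd windows held none of the motifs. RefSeq listed windows for 7 of the 8 genes, 10 in all, with 3 for Pparg and 2 for Cidec, and none for Fabp4. The C/EBP motif was in 4 of the 10 windows (Lep, Plin1, 1 of Cidec and the Pparg window shown) and in 9.56% of the 32851 windows of all genes. CCAAT was in 3 of the 10 and in 33.8% of all windows, AGGTCA in 2 and 14%, and TATAAA in 1 and 12.4%. The full pair of half-sites with 1 base between them, AGGTCANAGGTCA, was in 0 of the 10 and in 0.0335% of all. Counts of Pparg pool the transcripts from all its starts, so the use of the start shown was not measured.

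Each library held 23796902 to 29136403 counts. The labelled tissue was checked by its genes: the summed level of Acta1, Ckm, Mb, Tnnt3, Myh4 and Pvalb, genes of mature muscle fibers, was 53700 to 80360 TPM (transcript abundance scaled by gene length and library total) in the 6 single transgenic mice, 32990 to 38570 in the moderate model and 8299 to 14090 in the severe model. The 8 adipocyte genes together took 0.0142 to 0.0306% of the counts of a library. Their summed level was 228.1 to 519.1 TPM, with the lowest value in FLExDUX4/+ mouse 1358 and the highest in severe mouse 1066. Macrophage genes (Adgre1, Cd68, Csf1r, Itgam, Mrc1 and Lyz2) summed to 46.72 to 61.27 TPM in the single transgenic mice, 449.9 to 516 in the moderate model and 1475 to 1733 in the severe model. For the skin, only Krt10 of 3 listed keratins passed the filter on low counts. Ucp1, the defining gene of the brown adipocyte, did not pass it.

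Levels between genes are compared in TPM, which accounts for gene length. Fabp4 was the most abundant of the 8 in every group, at 166 ± 11.4 TPM (SD, n = 3) in ACTA1-MCM/+ mice, followed by Cfd at 80.2 ± 10.3. Adipoq at 20.2 ± 2.35 and Retn at 15.7 ± 3.87 came next, with overlapping ranges. Within each of these 3 mice Adipoq was above Retn, though only at 20.46 against 20.2 TPM in mouse 1127. Plin1 at 7.96 ± 1.96 and Cidec at 7.85 ± 0.345 did not differ from each other beyond their spread, nor did Lep at 2.75 ± 1.02 and Pparg at 2.28 ± 0.287. In the severe model, Fabp4 stood at 224 ± 70.2 and Cfd at 82.3 ± 54.3 TPM. There Pparg at 5.62 ± 1.13 lay above Plin1 at 3.91 ± 2.67 and Lep at 1.9 ± 1.41 by mean, with ranges that overlapped those of Plin1.

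Within a gene, mice were compared in CPM, counts scaled to library sizes adjusted by TMM factors, a scaling that takes the typical gene as its zero. A gene was called higher or lower at an adjusted p under 0.05 and a log2 fold change of at least 0.5 in edgeR's quasi-likelihood test across all genes. This choice of scaling bears on every result for the models. The TMM factors were 0.706 to 0.76 in the single transgenic mice, 1.06 to 1.13 in the moderate model and 1.69 to 1.87 in the severe model, so that the same share of counts gives a lower CPM in the models. Against ACTA1-MCM/+, the typical tested gene had a log2 fold change (median) of 0.04 in moderate and 0.08 in severe mice with TMM, but 0.65 and 1.39 with library size alone. Results are therefore given first relative to the typical gene and then as shares of all counts.

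**Figure D1:**
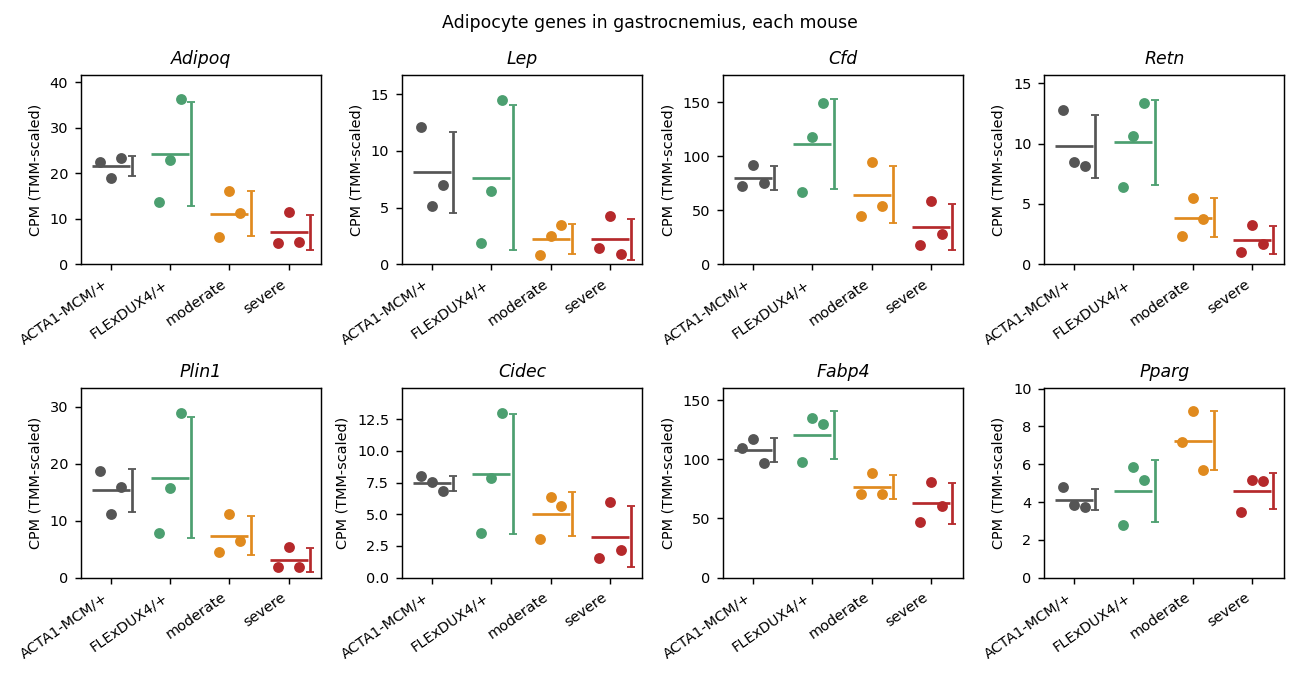
CPM on TMM-adjusted library sizes (linear axis from 0) of each adipocyte gene in each of the 12 mice, by group. Points are mice, horizontal lines are group means and the bar beside them is the SD (n = 3). Adipoq reads 19 to 23.3 CPM in ACTA1-MCM/+ and 4.78 to 11.5 in the severe model, while Pparg is at 5.71 to 8.83 in the moderate model, above its 3.74 to 4.77 in ACTA1-MCM/+.

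Without TMX, the 2 single transgenic groups did not show a called difference in any adipocyte gene. Of the 8, edgeR called 0 higher and 0 lower in FLExDUX4/+ against ACTA1-MCM/+, where 0% and 0.006% of all tested genes were called in these directions. No member reached an unadjusted p under 0.05 in this comparison. Fitted log2 fold changes ran from -0.08 for Lep to 0.48 for Cfd, each with an adjusted p of 1. What set the groups side by side was the spread: the SD of log2 CPM of Adipoq was 0.16 in ACTA1-MCM/+ and 0.71 in FLExDUX4/+, and that of Cidec was 0.11 and 0.94. The FLExDUX4/+ mice lay on both sides of the controls for every gene but Fabp4, whose lowest FLExDUX4/+ value was 97.4 CPM and lowest control 97.3. Within their group, mouse 1358 was lowest for 8 of 8 genes and mouse 1378 highest for 6. With 3 mice in each group this difference in spread was not tested.

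Of the 4 genes for secreted proteins, Adipoq, Retn and Cfd fell in the severe model relative to the typical gene, and of these only Retn also fell as a share of all counts. Adipoq encodes adiponectin, a hormone that raises insulin sensitivity. Its CPM was 22.5, 19 and 23.3 in ACTA1-MCM/+ mice and 13.6, 23 and 36.3 in FLExDUX4/+ mice. It was 6.06, 16.1 and 11.3 in the moderate mice and 4.78, 11.5 and 4.88 in the severe mice. All severe mice were below all controls, and so were all moderate mice. The log2 fold change against ACTA1-MCM/+ was -1.61 in the severe model (SE 0.48, adjusted p = 0.0135), which was called, and -0.96 in the moderate model (SE 0.48, adjusted p = 0.122), which was not. The severe call was lost without severe mouse 1047 (-1.39, adjusted p = 0.0595) or 1079 (-1.41, adjusted p = 0.0512), and it held without 1066 (-2.16, adjusted p = 0.00354). With library size alone the severe difference was -0.31 (SE 0.48, adjusted p = 0.55).

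Retn, which encodes resistin, was the member whose decrease held most widely. Its CPM was 12.8, 8.48 and 8.11 in ACTA1-MCM/+ mice and 6.4, 10.6 and 13.4 in FLExDUX4/+ mice. It was 2.33, 5.52 and 3.75 in the moderate mice and 0.992, 3.25 and 1.72 in the severe mice. Every mouse of both models was below every single transgenic mouse. Retn fell by 2.3 on the log2 scale in the severe model (SE 0.45, adjusted p = 0.000778), and it was called lower under all 24 other settings tried, library size alone included. In the moderate model it fell by 1.34 (SE 0.43, adjusted p = 0.0218) and was called under 17 of 24 settings. The moderate call was lost without control 1127, moderate 1236 or moderate 1331, with adjusted p-values of 0.0735, 0.0768 and 0.0581, and with library size alone, with an adjusted p of 0.134. The counts behind these values were 171 to 248 per control mouse and 44 to 138 per severe mouse.

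Cfd encodes adipsin, the complement factor D that adipocytes make in large amounts. Its CPM was 72.3, 92.1 and 74.9 in ACTA1-MCM/+ mice, 67, 118 and 149 in FLExDUX4/+ mice, 45.1, 94.5 and 53.5 in the moderate model and 17.5, 58.6 and 28.4 in the severe model. The moderate mice overlapped the controls, and the severe mice did not. Cfd fell by 1.2 in the severe model (SE 0.47, adjusted p = 0.0458), a value close to the threshold that was called under 12 of 24 other settings and turned to 0.1 (SE 0.47, adjusted p = 0.854) with library size alone. The call was lost without any of controls 1127, 1246 and 1349 (adjusted p 0.0684, 0.111 and 0.0749), FLExDUX4/+ 1367 (0.0593), moderate 1236 or 1331 (0.0513 and 0.0581), or severe 1047 or 1079 (0.142 and 0.127). In the moderate model the log2 difference was -0.31 (SE 0.47, adjusted p = 0.611).

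Lep encodes leptin, the satiety hormone whose level follows the fat mass. Its CPM was 12.1, 5.15 and 7.02 in ACTA1-MCM/+ mice, 1.87, 6.49 and 14.5 in FLExDUX4/+ mice, 0.852, 2.45 and 3.49 in the moderate model and 1.44, 4.25 and 0.87 in the severe model. All mice of both models were below all controls, but they overlapped the FLExDUX4/+ mice. The log2 differences of -1.84 (SE 0.83, adjusted p = 0.0916) and -1.88 (SE 0.81, adjusted p = 0.0623) were not called, nor were those with library size alone, -1.24 (adjusted p = 0.214) and -0.58 (adjusted p = 0.516). Without severe mouse 1066 the severe difference was -2.79 with an adjusted p of 0.0246, and it was also called without FLExDUX4/+ mouse 1358 (-1.9, adjusted p = 0.0336) or 1378 (-1.9, adjusted p = 0.0428).

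Of the droplet proteins, Plin1 fell in the severe model with TMM, and Cidec was called in neither model. Plin1, perilipin 1, coats the fat droplet and controls access of lipases to it. Its CPM was 18.8, 11.2 and 15.9 in ACTA1-MCM/+ mice, 7.87, 15.7 and 28.9 in FLExDUX4/+ mice, 4.45, 11.1 and 6.46 in the moderate model and 1.89, 5.42 and 1.86 in the severe model. Each severe mouse was below each single transgenic mouse. Plin1 fell by 2.32 in the severe model (SE 0.6, adjusted p = 0.00621), and this was called under 22 of 24 other settings but not with library size alone (-1.02, SE 0.59, adjusted p = 0.133). In the moderate model its difference of -1.07 (SE 0.57, adjusted p = 0.145) was not called. Cidec, which drives the fusion of droplets into 1 large droplet, had a CPM of 7.98, 7.52 and 6.83 in ACTA1-MCM/+ mice, 3.54, 7.88 and 13 in FLExDUX4/+ mice, 3.06, 6.34 and 5.61 in the moderate model and 1.51, 5.99 and 2.17 in the severe model. Its log2 differences of -0.57 (SE 0.56, adjusted p = 0.419) and -1.21 (SE 0.56, adjusted p = 0.0794) were not called, although all mice of both models were below all controls. As shares of all counts they turned to 0.03 and 0.09 (adjusted p = 0.97 and 0.886), also not called. Without severe mouse 1066 the severe difference was -2.01 with an adjusted p of 0.00492, and without FLExDUX4/+ mouse 1358 it was -1.22 with an adjusted p of 0.0458.

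Fabp4, the fatty acid carrier, varied least between mice. Its CPM was 110, 117 and 97.3 in ACTA1-MCM/+ mice, 97.4, 135 and 130 in FLExDUX4/+ mice, 70.6, 88.2 and 71.1 in the moderate model and 46.7, 81.2 and 60.6 in the severe model. Every mouse of both models was below every single transgenic mouse. With TMM Fabp4 fell by 0.78 in the severe model (SE 0.18, adjusted p = 0.0017), whereas with library size alone it was called higher, by 0.51 (SE 0.17, adjusted p = 0.0136). In the moderate model the difference was -0.5 (SE 0.18, adjusted p = 0.0337), just short of the fold threshold, and 0.11 with library size alone (adjusted p = 0.595). Fabp4 is also made by capillary endothelium and macrophages. Of 6 endothelial genes (Pecam1, Cdh5, Kdr, Tek, Emcn and Esam), 3 were called lower in the moderate model and 6 in the severe one. Of all tested genes, 17% and 27.9% were called lower. The summed level of the 6 endothelial genes was 46.49 to 68.27 TPM over all 12 mice. With library size alone their severe differences ran from -1.08 (Kdr) to 0.7 (Pecam1). All 6 macrophage genes were called higher in both models with that scaling, beside 52.5% and 75.4% of all tested genes. The part of these cells in the Fabp4 values was not tested.

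Pparg was the only member called higher with TMM. Its CPM was 4.77, 3.85 and 3.74 in ACTA1-MCM/+ mice and 2.76, 5.85 and 5.16 in FLExDUX4/+ mice. It was 7.16, 8.83 and 5.71 in the moderate mice and 3.47, 5.14 and 5.12 in the severe mice. All moderate mice were above all controls and above the severe mice, while moderate mouse 1331 lay within the range of the FLExDUX4/+ mice. Pparg rose by 0.81 in the moderate model (SE 0.25, adjusted p = 0.015), and by 1.42 with library size alone (SE 0.25, adjusted p = 0.000173). With TMM the moderate call was lost without control 1246, control 1349 or moderate 1308, with adjusted p-values of 0.0573, 0.0601 and 0.0632. In the severe model the difference was 0.15 with TMM (SE 0.25, adjusted p = 0.606), and with library size alone Pparg was called higher by 1.45 (SE 0.25, adjusted p = 7.93e-05). Its counts were 79 to 92 per control mouse, 175 to 256 per moderate mouse and 154 to 218 per severe mouse. Macrophages also express Pparg, and the summed macrophage genes given above were higher in every mouse of both models than in every single transgenic mouse. Their part in the Pparg values was not tested.

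As a group, relative to the typical gene, 1 of the 8 adipocyte genes was called higher (Pparg) and 1 lower (Retn) in the moderate model, where 24.4% of all tested genes were called higher and 17% lower. Severe mice had 0 called higher and 5 lower (Adipoq, Cfd, Retn, Plin1 and Fabp4), against 32.9% and 27.9% of all tested genes. Leaving out severe mouse 1047 or severe mouse 1079 each reduced the 5 to 3. The 8 had a median log2 fold change of -0.77 in moderate and -1.41 in severe mice, beside 0.04 and 0.08 over all tested genes. As shares of all counts the same medians were -0.17 and -0.11, beside 0.65 and 1.39 over all tested genes. On that scale 1 of the 8 was called higher in the moderate model (Pparg), where 52.5% of all genes were called higher and 4.51% lower. On that scale severe mice had 2 called higher (Fabp4 and Pparg) and 1 lower (Retn), beside 75.4% and 6.42% of all genes. In raw counts, Adipoq had 395 to 491 per control mouse and 202 to 488 per severe mouse, and Cidec had 144 to 156 and 67 to 254.

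**Figure D2:**
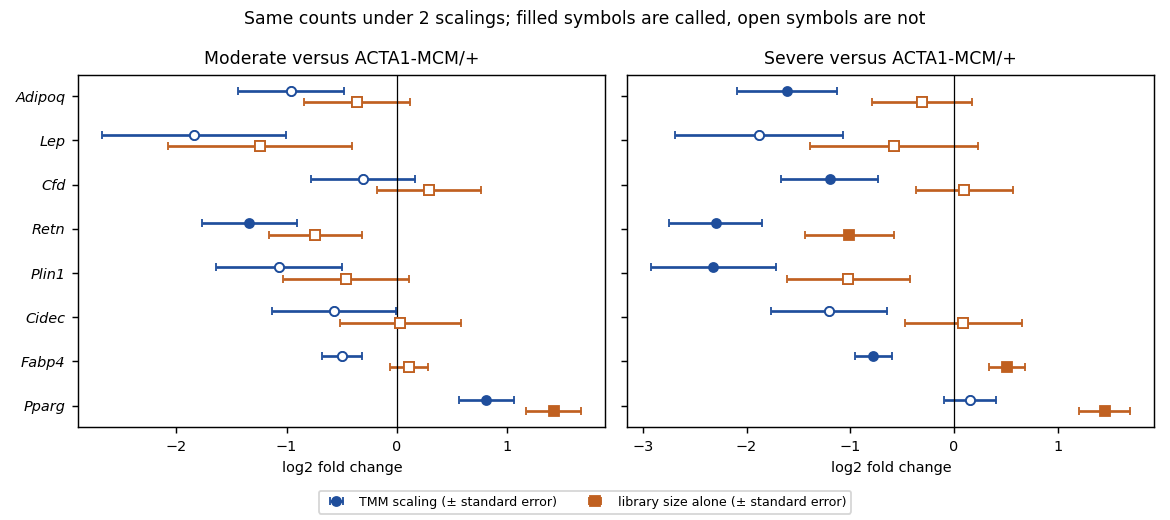
Log2 fold change of each adipocyte gene against ACTA1-MCM/+ in the moderate (left) and severe model (right), with TMM scaling (circles) and with library size alone (squares). Bars are standard errors (n = 3 mice per group), and filled symbols are called. Every square lies to the right of its circle, and Retn in the severe model (-2.3 and -1.01) and Pparg in the moderate model (0.81 and 1.42) are called with both.

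Between the severe and the moderate model, 0 of the 8 were called higher and 1 lower, beside 17.6% and 18.8% of all tested genes. Both comparisons above share the same ACTA1-MCM/+ mice, so this direct comparison was fitted on its own. The called gene was Pparg, at -0.66 with TMM (SE 0.24, adjusted p = 0.0335) and 0.03 with library size alone (SE 0.24, adjusted p = 0.916). Its call was lost without moderate mouse 1236 (adjusted p = 0.0652), moderate 1308 (0.135) or severe 1047 (0.131). The other differences with TMM ran from -1.26 for Plin1 (SE 0.6, adjusted p = 0.111) to -0.05 for Lep (SE 0.86, adjusted p = 0.971), with overlapping groups for all 7. Severe mouse 1066 was the highest of its group for 8 of 8 genes, so leaving it out lowers the severe mean of each. The share of all tested genes called in that refit is not given here. Without mouse 1066, 6 of the 8 genes were called lower. These were Plin1 (-1.96, adjusted p = 0.0322), Cidec (-1.44, 0.0377), Fabp4 (-0.52, 0.02), Cfd (-1.49, 0.0196) and Retn (-1.51, 0.018), together with Pparg.

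Values that do not depend on the scaling between libraries are the ratios of 2 genes in the same mouse, here of TPM. They were chosen after the values were seen and are given without a test. Pparg over Plin1 was 0.273, 0.371 and 0.244 in ACTA1-MCM/+ mice and 0.379, 0.384 and 0.212 in FLExDUX4/+ mice. It was 1.65, 0.794 and 0.904 in the moderate mice and 1.76, 0.964 and 2.58 in the severe mice. The lowest value in either model was therefore above the highest in a single transgenic mouse. Pparg over Adipoq had the same order, with 0.0934 to 0.149 in the single transgenic mice, 0.295 to 0.668 in the moderate model and 0.259 to 0.587 in the severe model. Fabp4 over Plin1 was 17.3 to 30.7 in ACTA1-MCM/+, 13.5 to 35.7 in FLExDUX4/+, 23.1 to 45.6 in the moderate model and 43.4 to 88.8 in the severe model. Adipoq over Plin1 was 2.14 to 3.07 in ACTA1-MCM/+ and 3.72 to 4.39 in the severe model, and Cidec over Plin1 was 0.858 to 1.36 and 1.66 to 2.24. Cfd over Plin1 was 7.45 to 15.8 in ACTA1-MCM/+, 10.1 to 16.2 in FLExDUX4/+, 15.7 to 19.1 in the moderate model and 16.7 to 27.4 in the severe model. Relative to Plin1, these 5 genes were thus higher in each severe mouse than in each control. All 5 ratios share this denominator, whose log2 difference with TMM in the severe model was the lowest of the adipocyte genes (-2.32). The ratios therefore rise together where Plin1 falls, and they are not 5 independent results. Plin1 had 84 counts in severe mouse 1047, 230 in 1066 and 77 in 1079. The ranges of Retn over Plin1 overlapped between all groups, at 1.58 to 2.34 in ACTA1-MCM/+ and 1.51 to 2.68 in the severe model. Those of Lep over Plin1 overlapped between the same groups, at 0.304 to 0.402 and 0.374 to 0.541. Lep over Adipoq was 0.102 to 0.188 and 0.0852 to 0.134 in the same groups.

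**Figure D3:**
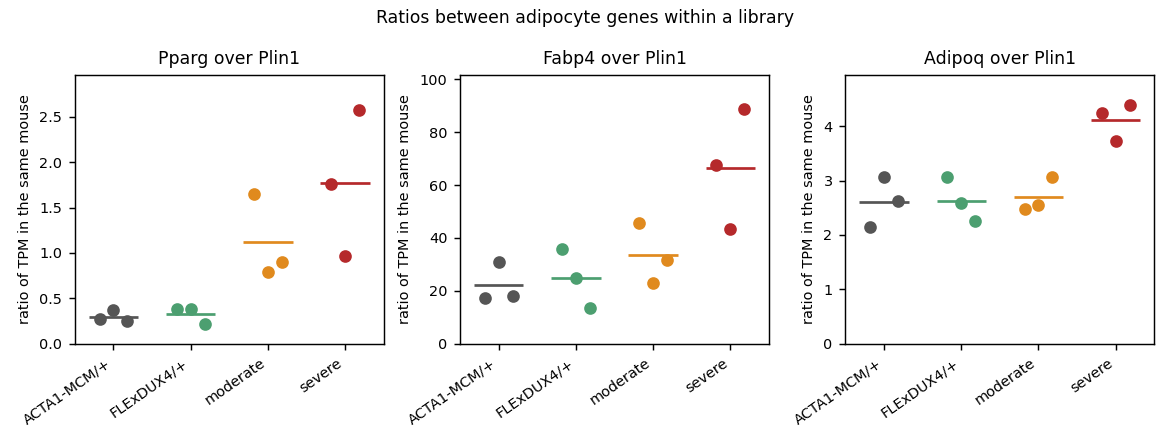
Ratio of the TPM of Pparg, Fabp4 and Adipoq to that of Plin1 in the same mouse (linear axes from 0), by group. Points are mice and lines are group means (n = 3). Pparg over Plin1 does not exceed 0.384 in the single transgenic mice and is at least 0.794 in the models, and Adipoq over Plin1 is above 3.07 in the severe mice and in no other group.

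The adipocyte genes varied widely between mice of the same group. The pooled within-group SD of log2 CPM had a median of 0.62 over the 8 genes, compared with 0.21 over all tested genes and 0.14 over the 8667 tested genes in the same range of mean CPM. Lep had the widest spread, with an SD of 1.12 that lay at the 98.4th percentile of tested genes. Cidec and Plin1 followed with 0.75 each, Adipoq and Retn with 0.62 each, and Cfd with 0.61. Pparg at 0.38 (percentile 74.5) and Fabp4 at 0.26 (percentile 60.3) were nearer to the other genes.

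The deviations were shared between the genes. Severe mouse 1066 had the highest CPM of its group for 8 of 8 genes and lay on average 0.83 above its group mean on the log2 scale. FLExDUX4/+ mouse 1378 was 0.65 above and moderate mouse 1308 was 0.48 above, highest for 6 and 7 genes. FLExDUX4/+ mouse 1358 was lowest for 8 of 8 genes, at -0.81, and moderate mouse 1236 for 7, at -0.55. Severe mouse 1047 was also at -0.55 and lowest for 6. The controls stayed between -0.13 and 0.21. Over the 28 pairs of members, the Pearson correlation of these deviations across 12 mice had a median of 0.87, from 0.49 (Pparg and Lep) to 0.97. Deviations within a group of 3 add to 0, so the 12 points carry fewer independent values, and the values are a description without a p. Without mice 1066 and 1358, which lay farthest from the median, the median was 0.8 and the range 0.18 to 0.95. Pparg followed the others least, with a median correlation of 0.65, and Cidec most, with 0.93. How much fat came with each dissected muscle is not given in the sources used here, and its part in this spread was not tested.

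**Figure D4:**
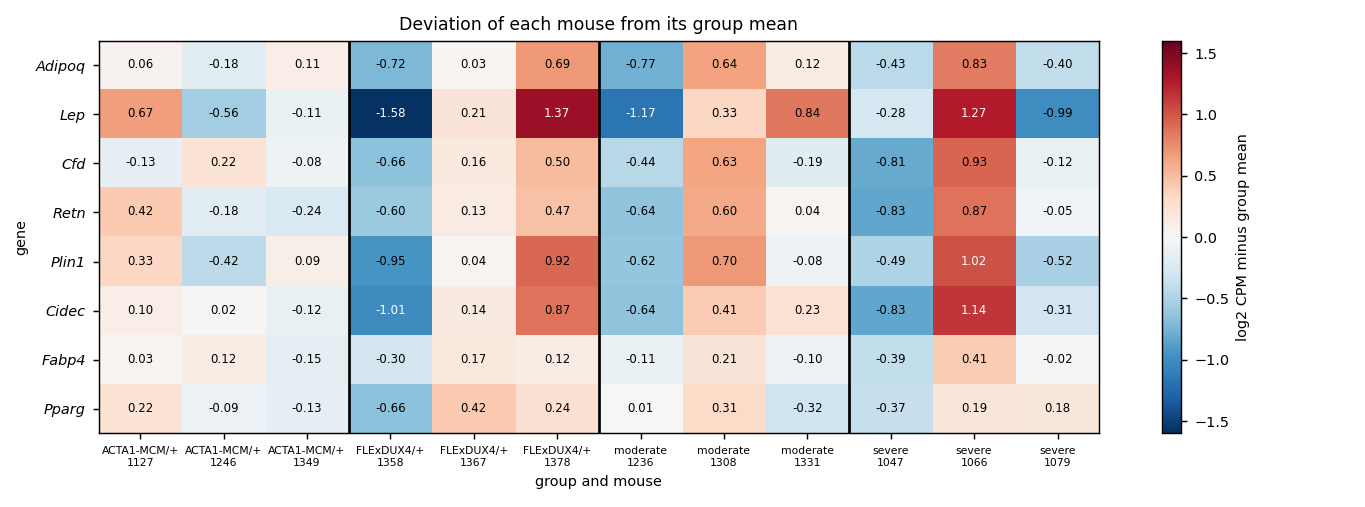
Deviation of each mouse (columns) from its group mean for each adipocyte gene (rows), in log2 CPM, with the value in each cell and a color scale from blue (below) to red (above). Severe mouse 1066 is above its group mean for 8 of 8 genes, and FLExDUX4/+ mouse 1358 is below for 8 of 8.

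The genes whose deviations were most like the mean deviation of the 8 were ranked among 12309 tested genes with at least 50 counts on average. The first 10 were Cdo1 (r = 0.95 over 12 mice), Slc1a3 (0.95), Tmem45b (0.94), Lipe (0.94), Prps1 (0.91), Glb1l2 (0.91), Gm17555 (0.9), Flrt3 (0.9), Gm17312 (0.9) and Pnpla3 (0.89). Without mice 1066 and 1358 these correlations were 0.82 to 0.93. The 10 genes were picked for high values over these same mice, so neither set of correlations tests whether they follow the adipocyte genes. Lipe encodes hormone-sensitive lipase, and Cdo1 encodes cysteine dioxygenase. Over the ranked genes of the lists described below, correlations with the mean deviation ran from -0.14 to 0.88 for fatty acid and triglyceride synthesis. For the lipid droplet and lipolysis they ran from -0.32 to 0.94. Correlations were -0.27 to -0.01 for the endothelial genes, -0.36 to 0.16 for the macrophage genes and -0.22 to 0.59 for the muscle fiber genes. Among 7 markers of fibro-adipogenic progenitors they ran from -0.44 for Lum to 0.61 for Dcn.

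Beyond the 8, genes of lipid handling were described in lists. Many of these genes are also active in muscle fibers or macrophages, so the lists do not isolate fat cells. None of their genes was called in FLExDUX4/+ against ACTA1-MCM/+. The counts called per list stand beside these shares of all tested genes. With TMM, 24.4% were called higher and 17% lower in moderate mice, and 32.9% and 27.9% in severe mice. With library size alone the shares were 52.5% and 4.51%, and 75.4% and 6.42%. Among 14 genes of the lipid droplet and of lipolysis, moderate mice had 2 called higher and 7 lower, and severe mice had 3 higher and 10 lower, with medians of -0.59 and -1.35. As shares of all counts these counts were 3 higher and 2 lower, and 4 higher and 4 lower. Cidea, a relative of Cidec found on droplets of brown fat, stood out from the 8. Its CPM was 0.0518, 0.53 and 0.237 in ACTA1-MCM/+ mice, 0.689, 0.942 and 0.193 in FLExDUX4/+ mice, 6.53, 6.97 and 6.2 in the moderate model and 3.34, 4.48 and 6.64 in the severe model. Cidea rose by 4.54 in moderate (SE 0.48, adjusted p = 4.91e-06) and 4.1 in severe mice (SE 0.49, adjusted p = 5.79e-06), and it was called higher with library size alone as well (5.14 and 5.38). The controls had only 1 to 11 counts of Cidea, which makes the size of this change imprecise. Ucp1, which marks brown fat, had too few counts to be tested.

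Plin2, the perilipin found in most cell types, rose by 1.46 in the severe model (SE 0.13, adjusted p = 1.12e-07), from 25.9 ± 3.14 to 71.3 ± 6.21 CPM (n = 3 each). In the moderate model its difference of 0.44 stayed under the fold threshold with TMM, and with library size alone it was called at 1.05. Plin3 rose by 1.53 in moderate and 0.56 in severe mice. Plin5, the perilipin of oxidative muscle, fell by 2.21 and 3.21 (adjusted p = 0.00391 and 0.000282), and by 1.61 and 1.92 with library size alone. Of the lipases, Lipe fell by 0.78 and 1.23 with TMM, and its values were -0.18 and 0.07 with library size alone, neither called. Pnpla2, which encodes adipose triglyceride lipase, fell by 0.63 and 1.39 with TMM and was at -0.02 and -0.09 with library size alone, not called. Plin4 (-2.24), Adrb3 (-2.49), the adrenergic receptor of fat cells, and Aqp7 (-2.53), a glycerol channel, were called lower with TMM in the severe model. Of these 3, Aqp7 (-1.23) was also called with library size alone.

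Genes of fatty acid and triglyceride synthesis were called lower for 9 of 15 in moderate and 11 of 15 in severe mice, with 0 called higher, and their medians were -0.72 and -1.8. With library size alone, moderate mice had 3 called lower and 1 higher, and severe mice 7 and 4. Scd1, the stearoyl-CoA desaturase, fell from 408 ± 155 CPM in ACTA1-MCM/+ to 36.4 ± 14.6 in the severe model (log2 fold change -3.49, SE 0.42, adjusted p = 2.32e-05). Dgat2, which adds the last fatty acid to triglyceride, fell from 39.2 ± 19.9 to 3.19 ± 0.384 (-3.62, SE 0.48, adjusted p = 8.94e-05). Mlxipl, the glucose-sensing factor ChREBP, fell by 3.3 in the severe model. These 3 severe calls held with library size alone, at -2.18, -2.31 and -2.

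Uptake genes split. Of 6, 1 was called higher in both models, Fabp5, and 3 and 4 lower in the moderate and severe model. Fabp5, a fatty acid carrier of skin, macrophages and other cells, rose by 2.26 and 3.49 (adjusted p = 5.46e-07 and 2.97e-09), from 4.3 ± 1.04 CPM to 20.6 ± 1.45 and 48.1 ± 8.82, and was called higher with library size alone. Slc2a4, the insulin-responsive glucose transporter GLUT4 of muscle and fat, fell by 1.24 and 4.16, and by 0.64 and 2.87 with library size alone. Lpl, lipoprotein lipase, fell by 1.25 and 1.82 with TMM and was at -0.64 and -0.51 with library size alone, not called. Cd36, a fatty acid receptor, was at 0.28 and -0.31 with TMM and not called, but with library size alone it was called higher in both, by 0.89 and 0.99 (adjusted p = 0.00104 and 0.000263). With that scaling 2 of the 6 were called higher and 2 lower in moderate mice, and 2 and 1 in severe mice.

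Among 8 further transcription factors of adipocyte formation, moderate mice had 1 called higher and 3 lower, and severe mice 1 and 6. As shares of all counts, 2 and 2, and 3 and 2, were called. Cebpa, the C/EBP factor that acts with PPAR gamma, rose by 0.91 in the severe model (SE 0.26, adjusted p = 0.00691), and by 2.22 with library size alone. Cebpd rose by 0.63 in the moderate model (SE 0.25, adjusted p = 0.0489), and in the severe model it was at -0.1 with TMM but rose by 1.2 with library size alone. Rxra, the partner receptor, fell by 1.15 and 1.83, and by 0.54 and 0.53 with library size alone. Klf15, a factor of fat and muscle metabolism, fell by 2.04 and 3.74, and by 1.44 and 2.45 with library size alone. Among 10 other adipocyte markers, 3 were called lower in moderate and 8 in severe mice with 0 higher, with medians of -0.89 and -1.68, and with library size alone 1 and 2 were lower and 1 was higher in each. Pnpla3, a droplet protein of fat and liver, fell by 1.75 and 3.73 and was called lower with library size alone as well (-1.15 and -2.44).

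The receptors that read the hormones of these cells were covered by 5 genes, with 1 called higher and 2 lower in moderate mice, and 1 and 4 in severe mice. Each model had 1 called higher and 0 lower with library size alone. Adipor1, an adiponectin receptor, fell by 0.79 and 1.73 and Lepr, the leptin receptor, by 0.82 and 1.22 with TMM. With library size alone, Adipor1 was at -0.19 and -0.43 and Lepr at -0.21 and 0.08, and neither was called. Cap1, a resistin-binding protein of the actin skeleton, rose by 0.92 and 1.71, and by 1.53 and 3.02 with library size alone. Among 5 tested brown fat genes, 2 were called higher and 1 lower in moderate mice and 1 and 2 in severe mice with TMM, against 3 and 0, and 3 and 1, with library size alone. Dio2, which activates thyroid hormone, rose by 1.51 and 1.89, and Cox8b fell by 0.95 and 3.02, of which the severe decrease was also called with library size alone (-1.73) and the moderate was not (-0.34). Of the 7 markers of fibro-adipogenic progenitors, moderate mice had 3 called higher and 0 lower, and severe mice 2 and 4. As shares of all counts, 6 were called higher in moderate mice and all 7 in severe mice, with 0 lower. On that scale 52.5% and 75.4% of all tested genes were called higher. The direction turned for the 4 progenitor markers that were lower with TMM (Dpp4, Pi16, Dcn and Cd34). Pdgfra, the gene most used to define these cells, rose by 0.52 and 0.68, and Dcn, a matrix proteoglycan, was at -0.16 in moderate mice and fell by 0.79 in severe mice with TMM, but was called higher in severe mice, by 0.51, with library size alone. None of the 7 was at 0, and their summed level was 277.5 to 364.9 TPM in the single transgenic mice, 453.9 to 487.8 in the moderate model and 488 to 635.7 in the severe model. Their part in the values of the adipocyte genes was not tested.

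**Figure D5:**
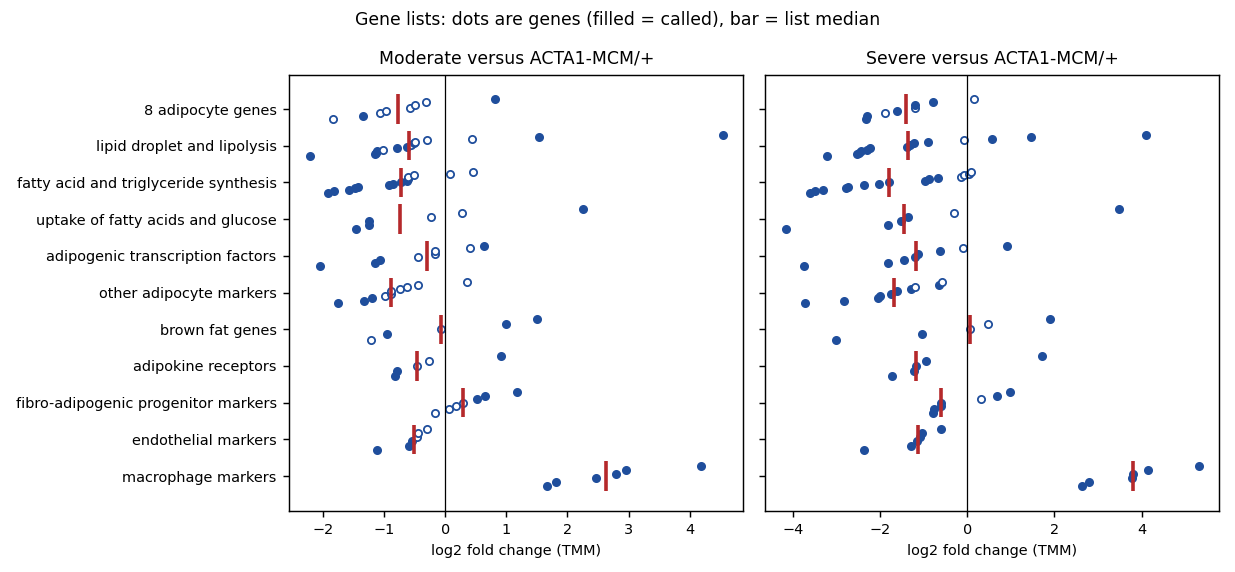
Log2 fold change against ACTA1-MCM/+ with TMM in the moderate (left) and severe model (right) for the genes of each list. Dots are genes (filled if called) and red bars are list medians. The median of the 8 adipocyte genes is -0.77 and -1.41, that of the macrophage genes 2.64 and 3.79 and that of the endothelial genes in the severe model -1.12.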

How the data were processed

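Per the study's methods, the authors trimmed single reads, mapped them with RSEM 1.2.4, changed to call Bowtie, to a merged annotation of mm10, and mapped the rest with TopHat2 2.0.8b. They deposited expected counts and TPM, both without TMM factors. Here expected counts were rounded and fitted with edgeR 4.0.16 (R 4.3.3; filterByExpr, TMM, robust quasi-likelihood test) over 4 groups, p-values being adjusted by Benjamini and Hochberg's method across 16679 genes. The fold threshold, a log2 of 0.5, follows the study's 1.4. Log2 CPM used a prior count of 0.5. Limma 3.58.1 on the deposited TPM (pseudocount 1 or 0.1) and DESeq2 1.42.0 were alternatives, beside other scalings, filters, thresholds, reference groups and leaving out each mouse. The tests were tried on simulated data. An exact permutation test of 3 mice against 3 cannot go below 0.1. The labels do not pair mice across groups. The 8 genes, the lists and the ranking rule were chosen with earlier results of these data known. All members and any called gene of a list could be named, as could the 10 genes with the most similar deviations. Trarg1 and Adgre1 were matched by gene ID. Positions came from GENCODE M21 and promoter sequences from RefSeq (GRCm38.p6).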

Additional observations from a re-analysis of the deposited data

How the results depend on the processing

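The count of adipocyte genes called depended on the scaling and on single mice. The share of all tested genes called changes with the setting too. In severe mice it was 32.9% higher and 27.9% lower in the main fit, and 75.4% and 6.42% with library size alone. For the other settings this share is not given here, so their counts cannot be read as particular to the adipocyte genes. In the moderate model, the 1 gene called higher became 0 at a log2 fold of at least 1 and 0 to 1 when each mouse was left out. The 1 called lower became 2 with median-of-ratios factors, without robust fitting, with no fold threshold and with ACTA1-MCM/+ and FLExDUX4/+ together as reference. It became 3 with only the 2 groups fitted, 0 with library size alone, limma on TPM with either pseudocount or no filter on low counts, and 0 to 2 with each mouse left out. For severe mice, the 0 called higher became 2 with library size alone and 1 with limma at either pseudocount. The 5 called lower became 1 with library size alone, 1 and 2 with limma at a pseudocount of 1 and 0.1, and 3 to 7 with each mouse left out. Between severe and moderate, the 1 called lower became 2 with DESeq2, 0 with library size alone, limma at either pseudocount, no filter or a fold of at least 1, and 0 to 6 with each mouse left out. Among called results, the direction turned for Fabp4 in severe mice (0.51 with library size alone, 0.39 with limma at either pseudocount) and for Cfd (0.1 with library size alone). It also turned for Pparg between severe and moderate (0.03 with library size alone, 0.04 and 0.05 with limma). Values that were not called also changed sign, among them Cidec in both models and Fabp4 and Cfd in the moderate model. With library size alone the scaling itself moves all genes, and the cause was not tested for the other changes. No paired analysis was possible because the labels give the groups no shared replicate numbers. Depth limits Lep, Retn and Pparg most, with as few as 27, 44 and 56 counts in a mouse.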
